A study of Mus musculus with 12 samples.

Results

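Chronic carbon tetrachloride (CCl4) injury was compared with its corn oil vehicle in Tom- hepatocytes, the cells sorted as negative for the red p16 reporter. The 3 Tom- CCl4 libraries were set against the 3 Tom- oil libraries as labelled. These are 6 of the 12 RNA-seq libraries of the series, and the other 6 hold Tom+ hepatocytes of the same treatments. All mice were male p16-Tom animals on a C57BL/6 background, heterozygous for p16-CreERT2 and carrying R26-CAG-LSL-tdTomato-WPRE, so that Cre under p16 control removes a stop cassette only when tamoxifen is present. CCl4 was injected into the peritoneum at 1 mL/kg every 3 days for 4 weeks, control mice had corn oil, and both treatments had tamoxifen at 80 mg/kg in the last week. Livers were perfused with collagenase, and live hepatocytes without tdTomato were collected by flow cytometry. A Tom- cell is therefore one sorted as negative for a reporter labelled in that week, and not one shown to lack p16. The ages of the mice are not given in the sources used here, and nothing in the labels says that the 3 libraries of a group came from separate mice, so that p-values measure the spread between libraries. In the gene tests that spread was estimated over all 12 libraries, those of Tom+ hepatocytes included.

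CCl4 is turned into a reactive radical by cytochrome P450 enzymes of hepatocytes near the central vein, and repeated doses kill these cells, set off regeneration by the survivors and lead to scarring. A hepatocyte in a male mouse also carries a programme of sex-biased genes, set by the pulses of growth hormone, besides its work in bile acid, amino acid, lipid and drug metabolism and in plasma protein secretion. The comparison asks which of these functions were lower, and which pathways were higher, in the hepatocytes outside the p16-labelled fraction.

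Of 17121 genes tested, 1083 were higher with CCl4 (6.33% of those tested) and 273 were lower (1.59%), at an adjusted p-value under 0.05 in edgeR's quasi-likelihood test and a log2 fold change beyond 0.75, which is what called means below. The median log2 fold change of all tested genes was 0.0046. Groups that did not overlap were common: 3298 of the 17121 genes were higher in all 3 CCl4 libraries than in any oil library, and 2868 were lower. Among called genes, 1066 of the 1083 higher and 268 of the 273 lower did not overlap. Counts for gene lists below are to be read against the shares of 6.33% and 1.59%. Total counts were 37568669 to 51153217 per library, in which 3 counts correspond to 0.0581 to 0.0829 counts per 1000000 (CPM). Levels below are TMM-normalised CPM, groups are given as mean ± SD (n = 3), log2 fold changes (log2FC) are CCl4 minus oil with their standard error (SE), and libraries are named in the order 1, 2, 3. Most genes called higher were of low level: 613 had a mean of 1 to 10 CPM, 272 were under 1 CPM, and 10 exceeded 1000 CPM.

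The library labelled Tom- oil 1 went against its label, since its reporter level was 1794 CPM, whereas the other 5 Tom- libraries had 120 to 263 CPM. Without it, 732 genes were higher (4.14% of 17676 tested) and 221 were lower (1.25%), and 682 of the higher and 190 of the lower genes were called both ways, with 0 called in opposite directions. Genes named below as lost without Tom- oil 1 are among the remainder. The fit had 1 library fewer, and its part in the lost calls was not tested.

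**Figure D1:**
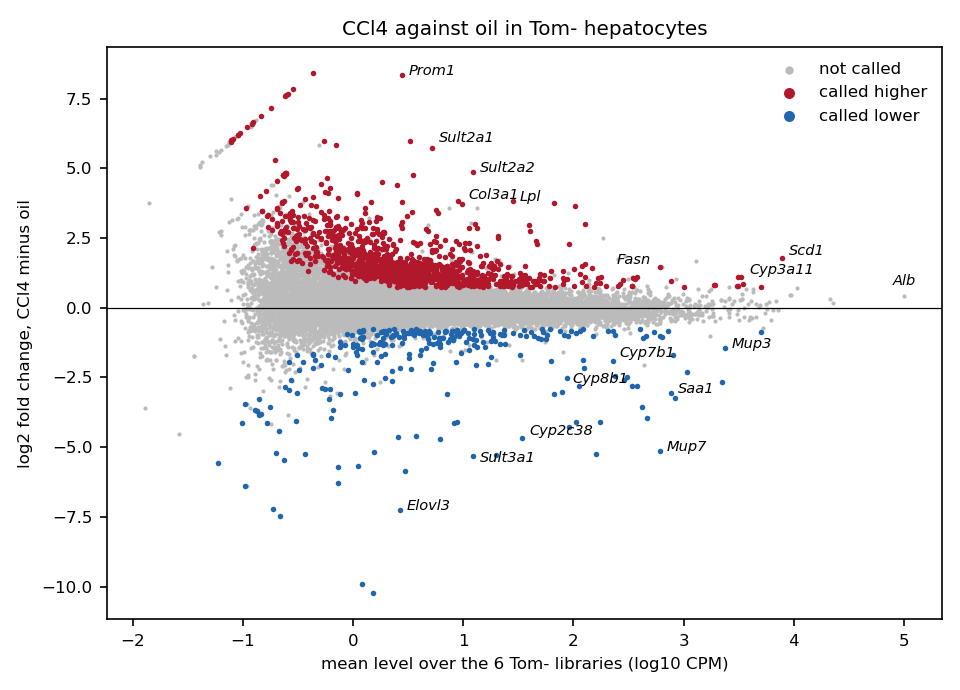
Each point is 1 of the 17121 genes tested, with the mean level over the 6 Tom- libraries (log10 CPM) on the horizontal axis and the log2 fold change of CCl4 against oil on the vertical axis. The 1083 genes called higher are red and the 273 called lower are blue, the urinary protein gene Mup7 lies at -5.13 and Scd1 at 1.78, and the rows of points at the upper left are genes with no count in oil.

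The clearest loss was that of the major urinary proteins, small secreted carriers of pheromones that adult male liver makes in large amounts. Of 21 listed genes 19 were tested, and 18 were lower, 0 higher, with a median log2 fold change of -2.81. Their summed level was 13607, 14850 and 9645 CPM in the oil libraries and 2954, 2360 and 2295 CPM in the CCl4 libraries. All 3 oil libraries lay above all 3 CCl4 libraries, and the exact permutation test gave p = 0.1, the smallest that 3 against 3 allows. Mup7 (mm10, chr4:60066469-60070475, reverse strand) had 1325, 1528 and 688 CPM in oil and 44.1, 15.8 and 41.3 CPM with CCl4, a log2 fold change of -5.13 (SE 0.53, adjusted p = 6.09e-04). Mup3, the most abundant listed member, fell less, from 3451 ± 792 to 1266 ± 307 CPM (log2FC -1.45, adjusted p = 0.00177). Mup10 fell by 2.30 and Mup11 by 3.25 on the log2 scale, in both cases with groups far apart. Mup20, also called darcin, was the member that did not pass, with 396, 361 and 174 CPM in oil and 199.8, 191 and 222 CPM with CCl4 (adjusted p = 0.117). Many of these genes are close copies of each other and reads were divided between features, so the split between such members is uncertain. Mup21 was not called without Tom- oil 1, which left 17 lower.

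The start regions of a pair of these genes are printed because both genes fell and the windows share an unbroken run of 66 bases. Each is the RefSeq window from 250 bases before to 50 bases after the annotated start (GRCm38.p6, reverse strand), for Mup7 at chr4:60070426-60070725 and for Mup15 at chr4:61439655-61439954. Capitals mark matches on either strand to CCAAT, the NF-Y box, and to TTATGNAA, a form of the C/EBP and PAR bZIP element.
Mup7: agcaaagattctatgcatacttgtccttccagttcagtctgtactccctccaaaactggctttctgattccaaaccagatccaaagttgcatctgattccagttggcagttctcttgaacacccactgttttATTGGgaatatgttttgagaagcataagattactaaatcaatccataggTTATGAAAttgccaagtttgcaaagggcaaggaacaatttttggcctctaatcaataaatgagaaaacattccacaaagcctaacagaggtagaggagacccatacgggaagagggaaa
Mup15: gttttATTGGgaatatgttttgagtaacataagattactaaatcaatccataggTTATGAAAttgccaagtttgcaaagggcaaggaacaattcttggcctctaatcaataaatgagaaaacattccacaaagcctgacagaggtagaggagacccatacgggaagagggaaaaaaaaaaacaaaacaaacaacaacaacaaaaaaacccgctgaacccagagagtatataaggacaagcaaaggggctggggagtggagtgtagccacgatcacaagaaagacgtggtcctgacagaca
The TTATGNAA match begins at position -69 in Mup7 and -196 in Mup15, and it occurs in 2.23% of the 14284 promoter windows of tested genes, against 37.6% for CCAAT. The shared run begins at -96 in Mup7 and -223 in Mup15. Mup15 had 188, 241 and 86.9 CPM in oil and 9.40, 9.01 and 8.26 CPM with CCl4.

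Other male-biased liver genes fell as well. Of 15 listed genes 14 were tested, and 9 were lower and 0 higher, with a median of -2.48. Elovl3, a fatty acid elongase of male liver (chr19:46131897-46135307), was at 3.53, 8.24 and 4.23 CPM in oil and at 0.0506, 0 and 0.0422 CPM with CCl4. It was close to absent in all 3 CCl4 libraries, with 4 counts against 766 in oil, a ratio of 170.2 (95% counting interval 66.2 to 626). Susd4, a regulator of complement, went from 11.8 ± 5.94 to 0.444 ± 0.129 CPM (log2FC -4.71, SE 0.58, adjusted p = 8.45e-04). Hsd3b5, a male-specific hydroxysteroid dehydrogenase, was at 1.21, 2.0 and 0.490 CPM in oil and 0.101, 0 and 0.169 CPM with CCl4 (log2FC -3.67, adjusted p = 0.00465), a low gene whose groups did not overlap. Selenbp2, a selenium-binding protein, fell from 141 ± 25.9 to 17.4 ± 3.05 CPM (log2FC -3.02, adjusted p = 7.57e-04), with reads shared with its close copy Selenbp1. Cyp4a12b, a male-specific fatty acid hydroxylase, had 2 counts in all CCl4 libraries against 202 in oil, a ratio of 89.8 (24.5 to 746). The male-biased Serpina1e, C6, Cyp2d9 and Ugt2b38 were not called, and they and Mup20 were the 5 members that did not pass.

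**Figure D2:**
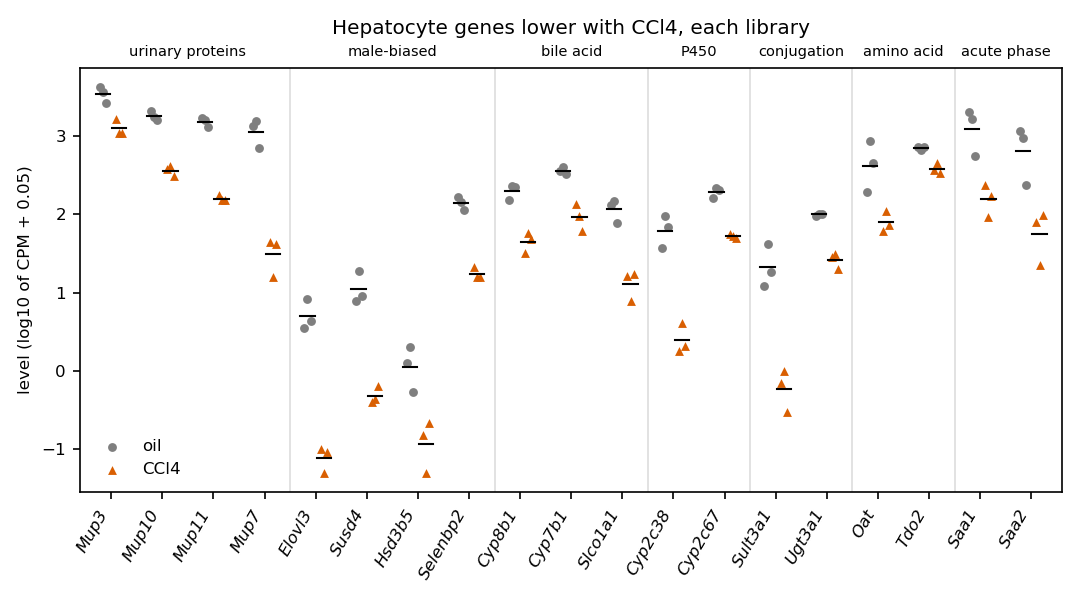
Each point is the level of a gene in 1 library, as log10 of CPM plus 0.05, for oil (grey circles) and CCl4 (orange triangles), with a line at the mean of the 3 log values. In all 19 genes shown the 3 CCl4 libraries lie below the 3 oil libraries, from Tdo2 with a log2 fold change of -0.85 to Elovl3 with -7.26.

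Bile acid genes were lower in a narrow set. Of 25 members of the list for bile acid synthesis and transport, 3 were lower and 0 higher (median -0.19), and the same 3 were called without Tom- oil 1. Cyp8b1, the sterol hydroxylase that sets the share of cholic acid, had 151, 231 and 224 CPM in oil and 31.7, 56.9 and 47.7 CPM with CCl4. Its groups were well apart (log2FC -2.15, SE 0.27, adjusted p = 8.45e-04). Cyp7b1, the oxysterol hydroxylase of the alternative pathway and itself male-biased, went from 359 ± 35.5 to 96.2 ± 36.9 CPM (log2FC -1.90, adjusted p = 0.00464). The uptake carrier Slco1a1 went from 119 ± 36.9 to 13.8 ± 5.33 CPM (log2FC -3.10, adjusted p = 0.00252). The rate-limiting enzyme Cyp7a1 was at 18.5, 39.5 and 73.7 CPM in oil and 53, 64.4 and 71.8 CPM with CCl4, with overlapping groups (adjusted p = 0.456). The main uptake carrier Slc10a1 and the export pump Abcb11 had log2 fold changes of 0.12 (SE 0.12) and 0.11 (SE 0.12), and the bile acid receptor Nr1h4 had 0.01 (SE 0.11).

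The start region of Cyp8b1 is shown because it holds the letters searched for HNF4, a factor that keeps hepatocyte genes on (RefSeq, GRCm38.p6, chr9:121916256-121916555, reverse strand). Capitals mark CAAAGTCCA at position -67 and, at -151, a match to TGACNNNGC, the NRF2 element, on the opposite strand.
Cyp8b1: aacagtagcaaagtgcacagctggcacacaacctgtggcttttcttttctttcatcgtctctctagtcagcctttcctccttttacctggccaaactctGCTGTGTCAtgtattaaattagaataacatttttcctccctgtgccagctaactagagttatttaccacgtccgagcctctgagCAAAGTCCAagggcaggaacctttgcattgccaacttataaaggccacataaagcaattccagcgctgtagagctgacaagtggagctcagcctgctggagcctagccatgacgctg
CAAAGTCCA occurs on either strand in 0.553% of the windows of tested genes and TGACNNNGC in 14.1%. CAAAGTCCA occurred in 8 of 958 windows (0.835%) of genes called higher and in 6 of 221 (2.71%) of genes called lower. For TGACNNNGC the numbers were 113 of 958 and 31 of 221. For TTATGNAA they were 26 of 958 and 12 of 221, the latter including windows of Mup copies. These shares were not tested for a difference, and 65.5% of the tested genes had a window. Hnf4a itself was at 772, 769 and 799 CPM in oil and 604, 698 and 748 CPM with CCl4 (adjusted p = 0.368).

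Drug metabolism changed in single genes and not across the families. Of 43 cytochrome P450 genes and their reductase tested, 5 were lower (11.6%) and 2 higher (4.65%), with a median of 0.03. Of all genes tested 1.59% were lower and 6.33% higher. Cyp2c38 was at 37, 93.9 and 67.6 CPM in oil and 1.74, 4.04 and 2.05 CPM with CCl4, so that its highest CCl4 library was under its lowest oil library (log2FC -4.68, SE 0.63, adjusted p = 0.00238). Cyp2c67 fell from 193 ± 28.1 to 52.6 ± 3.09 CPM (log2FC -1.88, adjusted p = 9.23e-06). Both belong to a family of close copies whose reads can be divided. Cyp4a14, a PPAR alpha target, went from 578 ± 161 to 274 ± 85 CPM (adjusted p = 0.0486), a call lost on leaving out any of the 6 libraries, and Cyp4a12a (log2FC -5.84, adjusted p = 0.0403) lost its call on leaving out any library but Tom- oil 3. Cyp3a11, the main CYP3A enzyme of mouse liver, was higher at 3088, 3723 and 4399 CPM in oil and 5063, 6819 and 7061 CPM with CCl4 (log2FC 0.76, adjusted p = 0.0183), and Cyp3a25 was higher by 0.79 on the log2 scale. Neither was called without Tom- oil 1. Cyp2e1, the enzyme that activates CCl4, was at 1519, 3427 and 2047 CPM in oil and 897, 1319 and 1274 CPM with CCl4, groups that did not overlap but did not pass (log2FC -1.0, SE 0.40, adjusted p = 0.117).

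Among conjugating enzymes the glucuronosyltransferases were called lower for 1 of 15 members and higher for 0 (median 0.21). That gene was Ugt3a1, with 95.4, 101 and 100.3 CPM in oil and 28, 31 and 19.9 CPM with CCl4, a fall seen in all libraries (log2FC -1.91, SE 0.15, adjusted p = 6.90e-06). Of 21 glutathione S-transferases 2 were higher (9.52%, against 6.33% of all genes tested) and 0 lower (median 0.12). These were Gstm3 (log2FC 3.66, adjusted p = 0.0239) and Gsta2 (log2FC 0.85, adjusted p = 0.0174). Gstm3 ran from 58.7 to 387 CPM between CCl4 libraries, and its call was lost without Tom- oil 1. The call of Gsta2 was lost without Tom- oil 3 or Tom- CCl4 2. Of 22 NRF2 antioxidant genes 3 were higher (13.6%, against 6.33% of all genes tested) and 0 lower (median 0.18). They were the epoxide hydrolase Ephx1, the pentose phosphate enzyme G6pdx and the carbonyl reductase Cbr3, of which Cbr3 was called without Tom- oil 1. Of 31 other phase I enzymes 3 were higher and 3 lower. The carboxylesterases Ces1c (2485 ± 181 to 4442 ± 54.1 CPM, adjusted p = 5.78e-04) and Ces1b (log2FC 1.23) rose, as did the aldehyde dehydrogenase Aldh1b1 (log2FC 1.05). The aldehyde oxidase Aox3 (log2FC -0.85) and the retinal dehydrogenase Aldh1a1 (log2FC -0.85) were among those that fell. Aox3 and Aldh1a1 were not called without Tom- oil 2.

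The sulfotransferases were split, with 5 of 15 tested members higher and 3 lower. The largest rise was that of Sult2a5 and the largest fall that of Sult3a1. Sult2a1, Sult2a2 and Sult3a1 were the members also on the female-biased list. Sult2a1, which sulfates bile acids and steroids (chr7:13796246-13837409, reverse strand), had 0.158, 0.0775 and 0.327 CPM in oil and 8.90, 14.9 and 6.80 CPM with CCl4. All CCl4 libraries were above all oil libraries, from a level near that of 3 counts (log2FC 5.74, SE 0.53, adjusted p = 8.00e-05). Sult2a2 went from 0.369, 0.271 and 1.76 to 16.7, 37 and 17.9 CPM (log2FC 4.87, adjusted p = 0.00443). Sult2a5 went from 0, 0.0775 and 0.204 to 4.65, 9.70 and 5.20 CPM (log2FC 5.99, adjusted p = 0.00134). Sult2a3 (adjusted p = 0.00111) and Sult2a6 (adjusted p = 0.00117) rose too, Sult2a6 with 165 counts against 3 in oil, a ratio of 61.9 (20.8 to 303). The copies of Sult2a lie in 1 cluster and share sequence, so their separate levels are uncertain. Sult3a1, female-biased like Sult2a1 (chr10:33857721-33879532), moved the other way, from 12, 41.9 and 18.1 CPM in oil to 0.657, 0.940 and 0.253 CPM with CCl4 (log2FC -5.32, SE 0.94, adjusted p = 0.00686). Sult2a7 and Sult1c2 were the other 2 that fell, Sult1c2 not without Tom- oil 1.

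The start region of Sult2a5 is printed as the member of the rising cluster for which a window was matched and which had the highest level among those matched (RefSeq, GRCm38.p6, chr7:13623717-13624016, forward strand). Capitals mark a match at position -27 to TTAATNATT, the core searched for HNF1, another liver-enriched factor.
Sult2a5: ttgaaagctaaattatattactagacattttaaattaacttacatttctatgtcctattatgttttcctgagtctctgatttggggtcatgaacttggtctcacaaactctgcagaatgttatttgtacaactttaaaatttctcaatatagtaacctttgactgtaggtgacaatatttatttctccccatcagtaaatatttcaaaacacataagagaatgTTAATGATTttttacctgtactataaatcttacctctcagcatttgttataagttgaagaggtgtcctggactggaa
TTAATNATT occurs in 0.91% of the windows of tested genes.

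Female-biased genes as a list did not rise as a block. Of 24 tested 5 were higher and 3 lower, with a median of 0.78. Besides Sult2a1 and Sult2a2, the transcription factor Cux2, which marks female liver, had 10.5, 10.2 and 7.95 CPM in oil and 23.7, 29.1 and 39.1 CPM with CCl4 (log2FC 1.68, SE 0.23, adjusted p = 8.61e-04). Hamp2 (log2FC 2.33, adjusted p = 0.0189) and Acot3 (log2FC 0.96, adjusted p = 0.017) were called with all libraries and not without Tom- oil 1, which gave 3 higher and 4 lower. Sult3a1 and the nuclear factor Tox (log2FC -1.58, adjusted p = 0.0323) were among the lower ones. Cyp3a44, also female-biased, was at 22.7, 17.9 and 124 CPM in oil and 439, 325 and 173 CPM with CCl4 and did not pass (adjusted p = 0.0643). Cyp3a41a was at 19.3, 37.4 and 324 CPM in oil and 697, 466 and 207 CPM with CCl4 (adjusted p = 0.263). Tom- oil 3 had the highest oil level of both, and without that library 11 of the list were higher and 2 lower. In the list for growth hormone signalling, the pathway that sets this sex bias, 0 of 12 were called in either direction (median -0.22), and the receptor Ghr went from 563 ± 7.43 to 422 ± 30.2 CPM (log2FC -0.42, adjusted p = 0.0131), inside the fold threshold.

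Amino acid catabolism and the urea cycle leaned slightly lower. Of 57 genes tested 4 were lower (7.02%, against 1.59% of all genes tested) and 0 higher. The median was -0.29, and 51 of the 57 fold changes were below 0. Tdo2, the first enzyme of tryptophan breakdown, had 721, 651 and 711 CPM in oil and 368, 451 and 333 CPM with CCl4, with each CCl4 library under each oil library (log2FC -0.85, SE 0.12, adjusted p = 6.47e-04). Ornithine aminotransferase, Oat, a pericentral enzyme, had 191, 844 and 447 CPM in oil and 61.1, 110.0 and 73.4 CPM with CCl4. Its oil libraries spread over a wide range, and its call (log2FC -2.60, adjusted p = 0.0347) held when Tom- oil 1 was left out and was lost on leaving out any other library. Bhmt, which remethylates homocysteine (log2FC -0.87, adjusted p = 0.0386), and the aminotransferase Got1 (log2FC -0.83, adjusted p = 0.0312) were not called without Tom- oil 1, which left 2 of the list.

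Pericentral and periportal genes were read with a limit set by the sort. The study found labelled hepatocytes mostly around the central vein. It states that bulk RNA-seq could therefore not separate their traits from zonation. How far the sort changed the zones sampled in each group, and with it Cyp2e1 and Oat, was not tested. Of 21 pericentral genes 2 were higher (9.52%) and 2 lower (9.52%), and of 21 periportal genes 2 were higher (9.52%) and 0 lower. Of all genes tested 6.33% were higher and 1.59% lower. The pericentral median was 0.46, with 14 fold changes above 0, and the periportal median was -0.31, with 15 below 0. Without Tom- oil 1 these medians were 0.19 and -0.15. Summed periportal levels were 22325 to 27215 CPM in oil and 17400 to 21786 CPM with CCl4 (exact permutation p = 0.1). Summed pericentral levels overlapped (exact permutation p = 0.5). Glul, the glutamine synthetase of the cells next to the central vein, was at 48.2, 320.2 and 119 CPM in oil and 84.4, 92.1 and 223 CPM with CCl4 (adjusted p = 0.844). Lgr5 (adjusted p = 0.74) and Slc1a2 (adjusted p = 0.266), of the same cells, likewise overlapped between groups. Tom- oil 1 was the lowest oil library in Glul, Lgr5, Cyp2e1, Oat and Slc1a2, at 7.83, 99.4 and 52.1 CPM for Slc1a2. The Wnt feedback genes Nkd1 (0.513 ± 0.0772 to 2.0 ± 0.453 CPM, log2FC 1.96, adjusted p = 0.00184) and Notum (log2FC 1.21, adjusted p = 0.0285) were higher, Notum not without Tom- oil 1. On the periportal side Hal, Sds and Cyp2f2 had log2 fold changes of -0.53 (SE 0.27), -0.36 (SE 0.20) and -0.54 (SE 0.33), and none of the 3 passed. Apoa4 and Aldh1b1 were the periportal genes that rose.

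The acute phase list held the other large losses in secretion. Of 27 genes 2 were lower and 1 higher, with a median of -0.05. Serum amyloid Saa1 had 1975, 1615 and 549 CPM in oil and 238, 92.2 and 170.5 CPM with CCl4 (log2FC -3.05, SE 0.55, adjusted p = 0.00745). Saa2 had 1162, 939 and 234 CPM in oil and 80.2, 22.1 and 97.2 CPM with CCl4 (log2FC -3.55, adjusted p = 0.0183), and it was not called without Tom- oil 1. In both genes Tom- oil 3 was the lowest oil library. Socs3, the feedback inhibitor of IL-6 signalling, was higher in the same list (log2FC 1.69, adjusted p = 0.0331) and was likewise not called without Tom- oil 1.

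Other core hepatocyte functions had few calls or none, which does not show that they were unchanged. In the lists for complement and coagulation (36 genes, median 0.15), hepatocyte transcription factors (17, median -0.15), endoplasmic reticulum chaperones (16, median -0.27), the circadian clock (18, median 0.06) and ribosomal proteins (75, median -0.12), 0 members were called in either direction. Summed levels of the transcription factors were 2297 to 2358 CPM in oil and 2023 to 2058 CPM with CCl4 (exact permutation p = 0.1). Without Tom- oil 1, 1 of them was called lower. All 16 chaperone fold changes were below 0, with sums that overlapped (exact permutation p = 0.2). The 15 hepatocyte markers had 0 calls, and Alb was at 81914, 73423 and 102195 CPM in oil and 119023, 108488 and 116543 CPM with CCl4 (log2FC 0.42, adjusted p = 0.0395), so the labelled cell type was met in all 6 libraries. Of 17 apolipoprotein and lipoprotein genes 1 was higher and 0 lower (median 0.26). Their sums were 36327 to 40453 CPM in oil and 43053 to 45643 CPM with CCl4. Of 29 genes of fatty acid oxidation 0 were higher and 1 was lower (median -0.12), namely Cyp4a14. Sums of that list were 16104 to 16579 CPM in oil and 13905 to 14910 CPM with CCl4. The exact permutation test gave p = 0.1 for both lists.

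**Figure D3:**
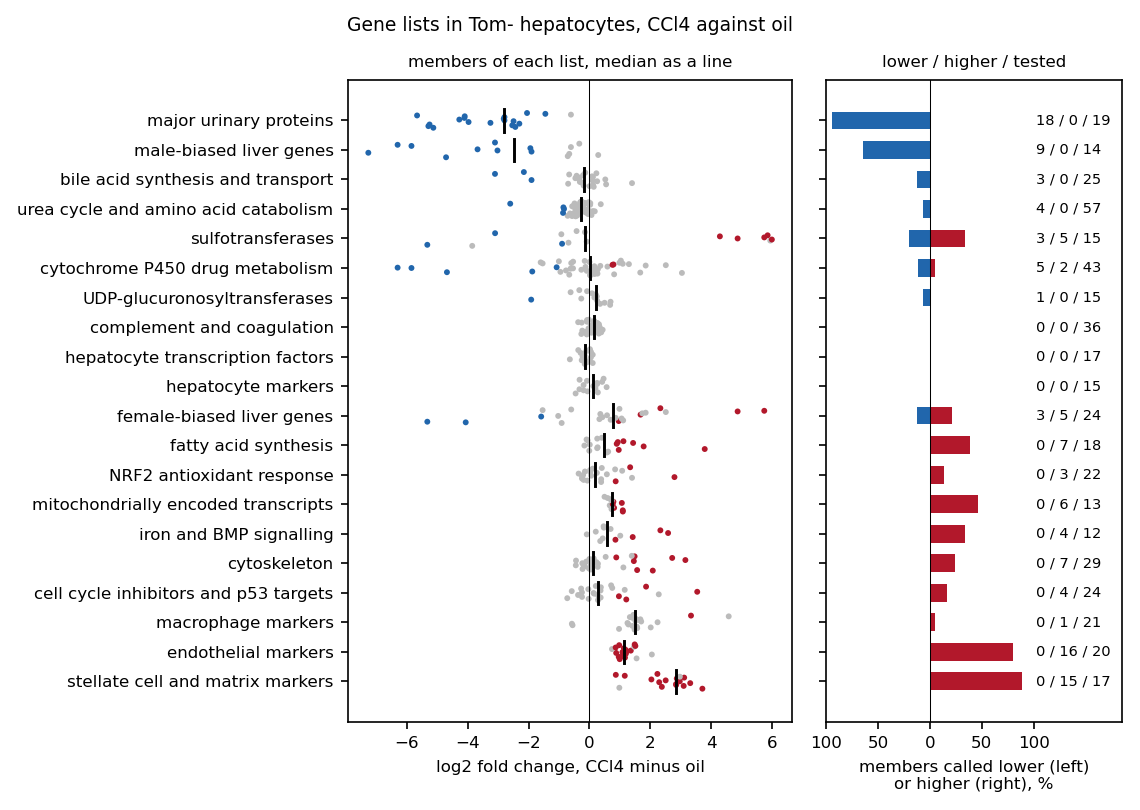
The left panel gives the log2 fold change of each tested member of 20 gene lists (red, called higher; blue, called lower; grey, not called) with the median as a black line, and the right panel the percent of members called. The major urinary proteins (18 of 19 lower) and the stellate cell and matrix markers (15 of 17 higher) stand at the ends, and complement and coagulation had no call among 36 genes.

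Fatty acid synthesis was the metabolic list with the most gains. Of 18 genes 7 were higher and 0 lower (median 0.49), and the number was 7 when any single library was left out. Scd1, the desaturase that makes monounsaturated fatty acids (chr19:44394451-44407709, reverse strand), had 3733, 3809 and 2997 CPM in oil and 8532, 10202 and 17490.2 CPM with CCl4. Every CCl4 library lay far above every oil library (log2FC 1.78, SE 0.33, adjusted p = 0.00611). Fasn, the fatty acid synthase, rose from 525 ± 23.2 to 1025 ± 111 CPM (log2FC 0.96, adjusted p = 0.00201). The elongase Elovl6 (log2FC 1.43, adjusted p = 0.0083), the carboxylase Acacb (log2FC 0.93, adjusted p = 0.00736) and the liver pyruvate kinase Pklr (log2FC 0.90, adjusted p = 0.00113) rose with it. Mlxipl, which encodes the glucose-sensing factor ChREBP, had 195, 287 and 239 CPM in oil and 369, 629 and 566 CPM with CCl4 (log2FC 1.12, adjusted p = 0.00271). Pnpla3, a lipase-like protein of lipid droplets, was at 0.290, 0.252 and 0.572 CPM in oil and 2.86, 4.78 and 7.90 CPM with CCl4, low in all oil libraries (log2FC 3.79, SE 0.46, adjusted p = 3.09e-04).

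Genes of lipid uptake and storage moved both ways. Of 16 tested in the list for lipid droplets and PPAR gamma, 2 were higher and 2 lower. Lipoprotein lipase, Lpl, which adult hepatocytes make little of (chr8:68880491-68907448), had 0.791, 3.64 and 6.48 CPM in oil and 29.5, 67.8 and 60.7 CPM with CCl4 (log2FC 3.83, SE 0.68, adjusted p = 0.00724). Fabp4, a fatty acid carrier of fat cells, macrophages and endothelium, had 0.844, 0.891 and 0.654 CPM in oil and 3.51, 3.79 and 4.10 CPM with CCl4 (log2FC 2.25, adjusted p = 0.00317). Fitm1, which promotes droplet formation, fell from 10.5, 23.7 and 15.9 CPM in oil to 1.21, 1.11 and 0.634 CPM with CCl4 (log2FC -4.10, SE 0.35, adjusted p = 2.64e-05), and Pparg fell by 1.16 on the log2 scale (adjusted p = 0.00443). Apoa4, an apolipoprotein of triglyceride-rich particles, rose from 30.3, 30 and 33.9 CPM in oil to 127, 162 and 169 CPM with CCl4, with little spread inside either group (log2FC 2.28, SE 0.15, adjusted p = 1.25e-06). In glucose metabolism 3 of 21 genes were higher (14.3%, against 6.33% of all genes tested) and 0 lower (median 0.12). Beside Pklr these were the muscle-type pyruvate kinase Pkm (4.95 ± 1.01 to 12.3 ± 0.773 CPM) and hexokinase Hk1 (0.911 ± 0.183 to 2.76 ± 0.0745 CPM), isoforms that mature hepatocytes express weakly.

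**Figure D4:**
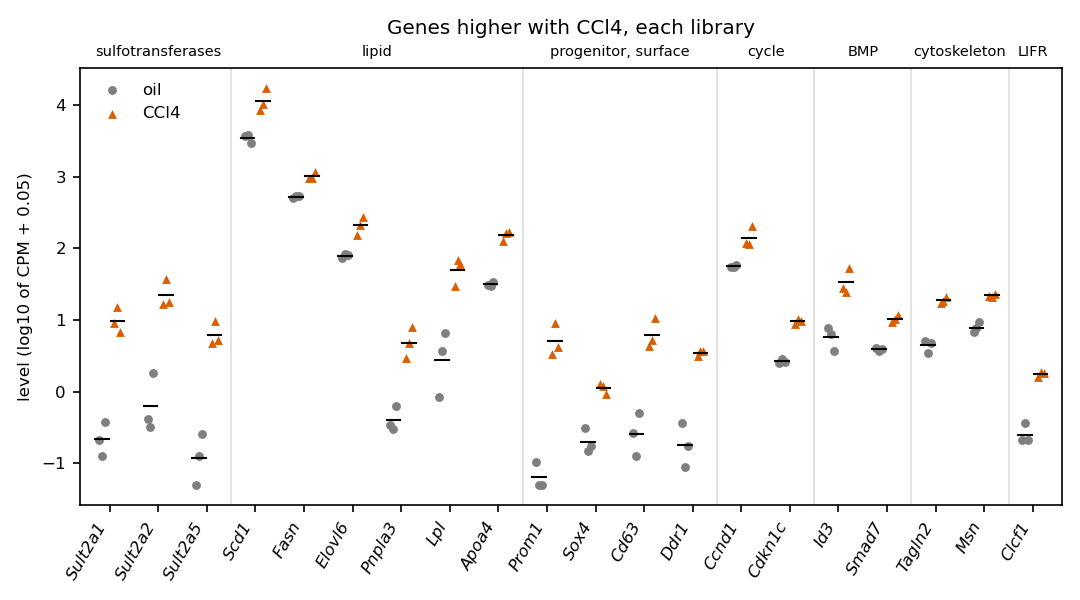
Each point is the level of a gene in 1 library, as log10 of CPM plus 0.05, for oil (grey circles) and CCl4 (orange triangles), with a line at the mean of the 3 log values. In all 20 genes shown the 3 CCl4 libraries lie above the 3 oil libraries, from Smad7 and Cdkn1c with small spread to Prom1, which had no count in 2 oil libraries.

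Prom1 was the largest rise among the genes named by rule (chr5:43993620-44102032, reverse strand). It encodes prominin 1 or CD133, a membrane protein of progenitor and bile duct cells, and had 0.0527, 0 and 0 CPM in oil and 3.34, 9.15 and 4.18 CPM with CCl4. The counts were 2 in all oil libraries and 661 in all CCl4 libraries, a ratio of 372 (95% counting interval 103 to 3077; adjusted p = 1.12e-04).

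The start region of Prom1 is printed because no other gene named by rule rose as far, at 1 of its annotated starts (RefSeq, GRCm38.p6, chr5:44101687-44101986, reverse strand). Capitals mark a match at position -88 to TGANTCA, the AP-1 element, and one at -35 to CCAAT or its reverse complement.
Prom1: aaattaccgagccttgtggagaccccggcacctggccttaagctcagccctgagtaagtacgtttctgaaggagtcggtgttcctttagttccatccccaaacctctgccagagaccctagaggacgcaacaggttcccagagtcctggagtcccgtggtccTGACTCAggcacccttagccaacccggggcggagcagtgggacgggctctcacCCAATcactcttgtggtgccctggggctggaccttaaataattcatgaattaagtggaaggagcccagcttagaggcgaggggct
TGANTCA occurs in 5.41% of the windows of tested genes.

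Of 18 listed ductal and progenitor genes 10 passed the filter on low counts, and 3 were higher and 1 lower. Sox4, a factor of bile duct development, rose (0.161 ± 0.0898 to 1.07 ± 0.182 CPM, log2FC 2.75, adjusted p = 0.00483). Dlk1, a fetal hepatoblast gene, had 0 counts in oil and 32 with CCl4, at least 12-fold higher against 3 counts over the group. Krt23 was lower (log2FC -2.62, adjusted p = 0.0453), a call lost without Tom- oil 1. Of 8 bile duct markers 3 passed the filter and 0 were called, with sums of 19.2 to 19.9 CPM in oil and 27.4 to 32.5 CPM with CCl4.

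Other large rises, in genes of low level, were in surface and secreted proteins. Cd63, a tetraspanin of late endosomes and the 1 gene of 30 lysosomal genes called higher, was at 0.211, 0.0775 and 0.450 CPM in oil and 4.32, 5.20 and 10.7 CPM with CCl4 (log2FC 4.77, SE 0.61, adjusted p = 9.96e-04). Ddr1, a collagen receptor kinase, was at 0.316, 0.0388 and 0.123 CPM in oil and 3.13, 3.68 and 3.59 CPM with CCl4 (log2FC 4.52, adjusted p = 1.26e-04). Nrg1, an EGF-family ligand (log2FC 4.11, adjusted p = 0.00313), and Chrna4, a nicotinic receptor subunit (log2FC 3.83, adjusted p = 0.00685), were higher in all CCl4 libraries. So were Spaca6 (log2FC 4.41), a sperm-egg fusion protein, and the secreted Epdr1 (log2FC 3.58). On the side of the losses, the orphan nuclear receptor Esrrg (1.95, 4.22 and 2.94 CPM in oil, 0.253, 0 and 0 CPM with CCl4), the adhesion protein Tenm3 (log2FC -4.12, adjusted p = 7.25e-05), Srgap3 (log2FC -4.60, adjusted p = 4.33e-05) and Rcan2 (log2FC -4.64, adjusted p = 0.0326) completed the largest falls. Rcan2 was not called when any library other than Tom- oil 1 was left out.

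Of 34 cell cycle genes 2 were higher (5.88%, against 6.33% of all genes tested) and 0 lower (median -0.03). Cyclin D1, Ccnd1, which drives entry into the cycle, had 55.6, 55.5 and 57.9 CPM in oil and 118, 116 and 204 CPM with CCl4 (log2FC 1.38, SE 0.22, adjusted p = 0.00251). Mcm3, a helicase subunit (log2FC 0.86, adjusted p = 0.0387), was not called without Tom- oil 1. Of 24 cell cycle inhibitors and p53 targets 4 were higher (16.7%) and 0 lower (median 0.28). The inhibitor Cdkn1c had 2.43, 2.85 and 2.55 CPM in oil and 8.77, 10.1 and 9.59 CPM with CCl4, a rise with tight groups (log2FC 1.86, SE 0.17, adjusted p = 2.28e-05). Plk2 (log2FC 0.97, adjusted p = 0.0111) and Phlda3 (log2FC 1.21, adjusted p = 0.0453) were also higher, Phlda3 with a call lost on leaving out any library. Cdkn2a, the locus of p16, was at 0.0791, 0.0194 and 0 CPM in oil and 0.455, 0.221 and 0.444 CPM with CCl4. That is 4 counts against 47, a ratio of 13.2 (4.83 to 50.5; adjusted p = 0.0342), and the call was lost on leaving out Tom- oil 2 or 3 or Tom- CCl4 1 or 2. The study states that human CDKN2A encodes more than p16, and counts per gene do not separate the products of the locus. Cdkn1a, which encodes p21, was at 55.3, 50.9 and 114 CPM in oil and 63, 60.2 and 47.3 CPM with CCl4, with overlapping groups (adjusted p = 0.593).

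In BMP and SMAD signalling Id3 and Smad7 were the steadiest gains, and in the IL-6 family it was Clcf1. Of 12 tested genes of iron and BMP signalling 4 were higher and 0 lower (median 0.58), with Hamp2 not called without Tom- oil 1. Id3, an inhibitor of DNA binding that answers to BMP, had 7.70, 6.41 and 3.68 CPM in oil and 27.9, 24.9 and 53.3 CPM with CCl4 (log2FC 2.58, SE 0.48, adjusted p = 0.00768). Smad7, the feedback inhibitor of SMAD signalling, had 4.03, 3.60 and 3.90 CPM in oil and 9.23, 10.1 and 11.6 CPM with CCl4 (log2FC 1.42, SE 0.16, adjusted p = 1.79e-04). The ligand Bmp6, which liver endothelium makes, was higher by 0.86 on the log2 scale (adjusted p = 0.0232), a call lost without Tom- oil 2, Tom- CCl4 2 or Tom- CCl4 3. Hamp, the iron hormone hepcidin, was at 255, 204 and 61.3 CPM in oil and 328, 264 and 249 CPM with CCl4 and did not pass (adjusted p = 0.29). Of 11 tested genes of the IL-6 and LIFR family 3 were higher and 0 lower. The ligand Clcf1 had 0.158, 0.310 and 0.163 CPM in oil and 1.57, 1.82 and 1.77 CPM with CCl4 (log2FC 3.0, SE 0.45, adjusted p = 0.00117), and it was the member also called without Tom- oil 1. The receptor subunits Lifr (1302 ± 159 to 979 ± 281 CPM, adjusted p = 0.203) and Il6st (163 ± 27.4 to 172 ± 7.67 CPM, adjusted p = 0.636) and the ligand Ctf1 (adjusted p = 0.392) did not pass. Socs3 and the receptor Osmr (log2FC 1.41, adjusted p = 0.0115) were the other 2 called with all libraries, and without Tom- oil 1 their adjusted p-values were 0.101 and 0.0517.

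Cytoskeletal genes rose in part, 7 of 29 with 0 lower (median 0.12). Tagln2, an actin-binding protein, had 5.09, 3.47 and 4.78 CPM in oil and 17.3, 18.2 and 20.7 CPM with CCl4 (log2FC 2.08, SE 0.20, adjusted p = 4.87e-05). Moesin, Msn, which ties actin to the membrane, had 6.72, 7.58 and 9.28 CPM in oil and 21.6, 21.2 and 23.3 CPM with CCl4 (log2FC 1.48, adjusted p = 0.00156). Tmsb10, Myl9, Cnn2, Vim and Tpm4 were the other 5, of which Vim was not called without Tom- oil 1. Of 14 annexin and S100 genes tested 4 were higher and 0 lower (median -0.0017), and Anxa2 (3.26 ± 1.05 to 9.34 ± 1.90 CPM, adjusted p = 0.00124) and Anxa1 were called without Tom- oil 1 whereas Anxa3 and S100a11 were not. Of 8 YAP targets tested 2 were higher, Amotl1 (log2FC 1.48, adjusted p = 2.63e-04) and Ccn1 (log2FC 0.82, adjusted p = 0.016), Ccn1 not without Tom- oil 1. Endothelial, stellate and white blood cells also express Msn, Tagln2, Vim, Tmsb10, Myl9 and Anxa1, and markers of such cells rose in these same libraries, as given next.

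Markers of other liver cells were higher with CCl4 although the cells had been sorted as hepatocytes. Of 63 such markers tested 32 were higher and 0 lower. For the stellate cell and matrix list 17 of 21 were tested and 15 were higher (median 2.85), with summed levels of 73.1, 69.4 and 138.1 CPM in oil and 277, 349 and 335 CPM with CCl4. Col3a1, a fibrillar collagen, went from 0.844, 0.504 and 2.74 CPM in oil to 17.4, 18.6 and 18 CPM with CCl4 (log2FC 3.71, SE 0.53, adjusted p = 0.00236). Reln (log2FC 2.87), Lrat (log2FC 2.04), Pdgfrb (log2FC 2.50), Dcn (log2FC 2.85) and Lum (log2FC 3.31), which stellate cells or fibroblasts express, rose as well, and so did the matrix genes Postn (log2FC 4.09) and Col16a1 (log2FC 3.50) outside the list. Without Tom- oil 1, 9 of the list were higher. For the 20 endothelial markers 16 were higher (median 1.15), at 319, 249 and 383 CPM in oil and 673, 683 and 647 CPM with CCl4 in sum. Cdh5 (10.1 ± 2.46 to 28.2 ± 2.62 CPM, adjusted p = 8.28e-04), Egfl7 (log2FC 1.36) and the scavenger receptor Stab2 (32.4 ± 3.14 to 63.2 ± 1.22 CPM, adjusted p = 0.00122) were among them.

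For the 21 macrophage markers 1 was called, Ccr2, and without Tom- oil 1 its call was lost (adjusted p = 0.0572), which left 0. The sums were 23.9, 34.7 and 167 CPM in oil and 176, 164 and 208 CPM with CCl4, so that Tom- oil 3 lay inside the CCl4 range. Without Tom- oil 3, 5 of them were higher. Of 13 lymphocyte and neutrophil markers 2 passed the filter and 0 were called, at sums of 0 to 0.49 CPM in oil and 0.221 to 0.676 CPM with CCl4. The hepatocyte markers summed to 140267, 130842 and 167150 CPM in oil and 184901, 169615 and 179209 CPM with CCl4. For the stellate, endothelial and hepatocyte sums the exact permutation test gave p = 0.1, the smallest possible. More cells of another type and more RNA of these genes per hepatocyte cannot be told apart in bulk libraries. Nor can fewer cells of a type and less RNA per cell. The part of RNA from other cells in any rise given here was not tested. That covers Lpl, Fabp4, Bmp6, Id3, the cytoskeletal genes and the collagen genes. It also covers low genes such as Pkm, Hk1, Cd63, Ddr1, Sox4, Nrg1, Notum and Clcf1.

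**Figure D5:**
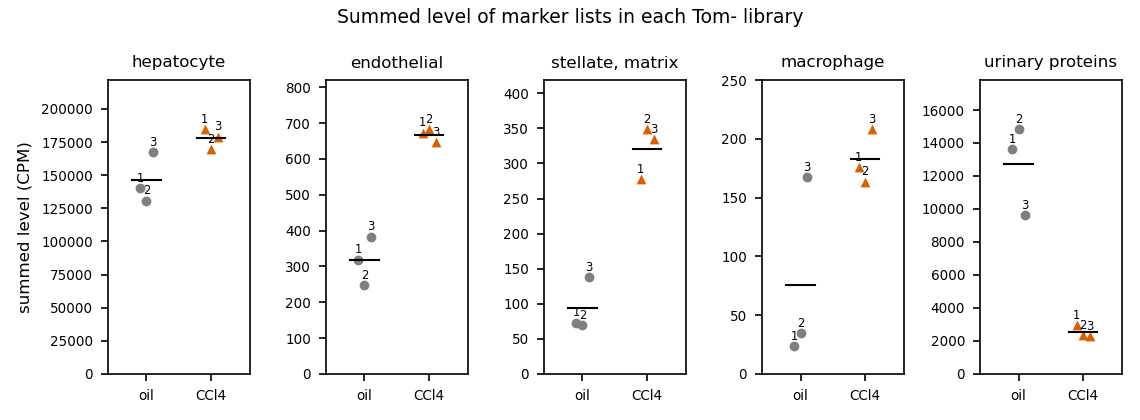
Each panel gives the summed level (CPM, from 0) of a marker list in each Tom- library, with oil as grey circles, CCl4 as orange triangles, the replicate number above each point and a line at the group mean. Endothelial and stellate sums do not overlap between groups, the macrophage sum of Tom- oil 3 (167 CPM) lies with the CCl4 libraries, and the urinary proteins fall from 12700.3 to 2536 CPM in the mean.

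Mitochondrially encoded transcripts were called higher for 6 of 13 genes and lower for 0 (median 0.74). Their summed level was 35808, 24475 and 18477 CPM in oil and 34621, 44796 and 55043 CPM with CCl4, so that Tom- oil 1 overlapped the CCl4 libraries. Without Tom- oil 1 all 13 were called, without Tom- CCl4 3 the number was 2, and with the 6 Tom- libraries fitted alone it was 3. The complex I gene mt-Nd3 had 224, 254 and 189 CPM in oil and 452, 472 and 473 CPM with CCl4 (log2FC 1.06, adjusted p = 0.00109). Nuclear copies of these genes share their reads.

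Interferon, chemokine, stress and early response genes gave scattered calls. Of 33 interferon and antigen presentation genes 3 were higher (9.09%) and 1 lower (3.03%), against 6.33% and 1.59% of all genes tested. Stat2, which carries the type I interferon signal, had 49.3, 51.5 and 68.3 CPM in oil and 103, 126 and 122 CPM with CCl4 (log2FC 1.05, SE 0.12, adjusted p = 2.34e-04). Mx2, Oas1a and the immunoproteasome gene Psmb9 were called with all libraries and not without Tom- oil 1. The same held for Cxcl14 (1 of 13 chemokines), for Psat1, higher, and Trib3, lower (of 15 ATF4 targets), and for Myc (1 of 17 immediate early genes).

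The CCl4 effect in Tom- cells was set against that in Tom+ cells by a test of the difference in the same fit. It differed for 201 genes (1.17% of those tested), with 164 higher and 37 lower in Tom-. Libraries of the 2 fractions with the same treatment and number deviated together, with correlations of 0.353 to 0.613 against -0.453 to 0.0187 for different numbers. With the fractions paired in this way, an alternative added later, 718 genes were higher and 220 lower, among them 162 of the 164 and all 37. In Tom+ cells 497 genes were higher and 400 lower with CCl4, in contrasts that share no library, although the paired libraries are not independent. The 263 genes higher in both were 24.3% of those higher in Tom- and 52.9% of those higher in Tom+. The 127 lower in both were 46.5% and 31.8%. Of the losses described above, Mup7, Sult3a1, Cyp8b1 and Slco1a1 were also called lower in Tom+, with log2FC of -4.76, -4.22, -2.69 and -2.63. Prom1 and Sult2a1 were called higher there too. For none of these 6 did the difference between fractions pass without pairing, and with pairing it passed for Sult3a1 (-1.14, adjusted p = 0.024). Among the 15 largest falls, Elovl3, Susd4, Cyp2c38, Rcan2, Srgap3, Tenm3 and Fitm1 also passed with pairing, each with a lower effect in Tom-. Esrrg and the Mup genes among them did not. Among the 15 largest rises, Spaca6, Chrna4, Pnpla3, Epdr1 and Col16a1 passed with pairing, with a higher effect in Tom-, and the others did not. Clcf1 (1.99, adjusted p = 0.0409) and the pericentral Oat (-2.74, adjusted p = 3.51e-07) passed with pairing too. The pericentral genes Glul (-2.51, adjusted p = 0.0297), Lgr5 (-3.01, adjusted p = 2.76e-04) and Cyp2e1 (-2.22, adjusted p = 4.10e-06) also passed with pairing, as log2 differences of the Tom- effect minus the Tom+ effect. So did the periportal Hal (1.30, adjusted p = 2.60e-05) and Cyp2f2 (1.78, adjusted p = 9.60e-06), in the other direction. By list, 18 of 19 urinary protein genes were lower in Tom+, 4 of 18 fatty acid synthesis genes, 9 of 17 stellate markers and 0 of 20 endothelial markers were higher, and 13 of 21 pericentral genes were higher, against 2 in Tom-. These differences between list counts were not tested. The part of zonation, through where labelled cells lie, in the fraction differences of zone genes was not tested either. That covers Glul, Lgr5, Cyp2e1, Oat, Hal and Cyp2f2. The oil libraries include Tom+ oil 2, whose reporter level of 135 CPM also went against its label. The paired fit was not repeated without Tom+ oil 2 or without Tom- oil 1.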

How the data were processed

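RNA from sorted Tom- and Tom+ hepatocytes was sequenced as polyA-selected, strand-specific libraries, and the 6 Tom- libraries carry the comparison reported here. The authors deposited 1 table of estimated counts per gene for 12 libraries, of 54839 features, on mm10. The submitters' processing notes name fastp 0.23.2, HISAT2 2.1.0 and DESeq2 1.42.1. The study's methods name TPMcalculator for TPM values. Which program made the counts, its strand setting and the annotation release are not given in the sources used here. Of the non-zero values 30.4% to 32.9% per library were not whole, so reads had been divided between features, which makes copies within the Mup, Sult2a, Cyp2c, Cyp3a, Ces1, Saa and Gstm families, and mitochondrial genes against their nuclear copies, uncertain. Antisense and overlapping genes may share reads for the same reason.

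The values had been taken for whole counts when the tests were set, and they were rounded before use. Genes were kept by edgeR's filterByExpr, scaled by TMM and fitted with its robust quasi-likelihood model over all 12 libraries with 4 group means (R 4.3.3, edgeR 4.0.16). A gene was called at a Benjamini-Hochberg adjusted p under 0.05 and a log2 fold change beyond 0.75. The fit was tested on simulated data. Summed levels were compared by two-sided exact permutation. Intervals on ratios of counts are exact at 95% and, like the floor of 3 counts, cover counting error only. Genes were named if the study names them, or if among the 5 most changed called or 3 most abundant members of a list. The 15 largest rises and 15 largest falls were also named, at a mean of 1 CPM or more and called with and without Tom- oil 1. For these rises and falls, groups that do not overlap were a condition, and predicted genes and pseudogenes were left out. Members and lists were chosen with earlier results of these data known. Of 17104 gene symbols tested, 65.5% matched a RefSeq promoter window. Alternatives were DESeq2 1.42.0, limma-voom (limma 3.58.1), other scalings and filters, a replicate block and leaving out libraries. Same-numbered oil and CCl4 libraries correlated at 0.036 to 0.082 in their deviations over 13104 genes, and different numbers at -0.092 to 0.032. The same-numbered values were small though all higher, and these numbers were not treated as pairs. Whether libraries of 1 number shared a batch was not tested. Same-numbered Tom- and Tom+ libraries of a treatment correlated at 0.353 to 0.613 over 13061 genes, so a fit with these pairs is given beside the comparison of fractions. The labels do not say that they share a mouse. Results for some genes are not reported here.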

Additional observations from a re-analysis of the deposited data

Results flagged for a closer look

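The CCl4 effect differed between Tom- and Tom+ hepatocytes, by edgeR's quasi-likelihood test of the difference, for 16 of the named genes. Values are log2 differences, Tom- effect minus Tom+ effect. The interferon factor Stat2 differed by 1.29 (adjusted p = 0.00738), with 1.05 in Tom- and -0.23 in Tom+. The cell cycle inhibitor Cdkn1c differed by -1.65 (adjusted p = 0.00738), with a rise of 1.86 in Tom- and a larger rise of 3.52 in Tom+. Pparg, the lipid-storage factor, differed by -1.99 (adjusted p = 0.0106), at -1.16 in Tom- and 0.83 in Tom+. Anxa2 differed by -1.58 (adjusted p = 0.0339), having risen by 1.51 in Tom- and 3.09 in Tom+.

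The metabolic genes Aldh1a1 (-1.05), Rgn (-1.14), Aox3 (-1.11) and Gsta3 (-0.85) had a lower effect in Tom-. The periportal gene Sds had a higher one (1.58), since it fell by 1.93 in Tom+ and had -0.36 in Tom-. The part of zonation in these differences was not tested. The adhesion protein Tenm3 differed by -2.25, falling by 4.12 in Tom- and by 1.87 in Tom+.

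The mitochondrial transcripts mt-Nd3 (1.39), mt-Atp6 (1.31) and mt-Nd4l (1.41) had a higher effect in Tom-. The endothelial markers Cdh5 (1.41) and Ptprb (1.25) and the YAP target Amotl1 (1.23) did so too. Endothelial marker sums rose from 317 to 668 CPM in the mean in Tom-, and the part of RNA from such cells was not tested. Without Tom- oil 1 the adjusted p was 0.0667 for Amotl1, 0.0769 for Cdh5, 0.082 for Ptprb and 0.0863 for Gsta3, and it was under 0.05 for the other 12. Of those 12, Aox3 (0.056), Sds (0.0815), mt-Atp6 (0.0747), Anxa2 (0.0991), mt-Nd4l (0.115) and Tenm3 (0.138) reached these adjusted p-values in at least 1 other alternative, without Tom- oil 2 for mt-Atp6 and without Tom- CCl4 2 for the other 5. With the fractions paired by number, 15 of the 16 were called and mt-Nd4l was not (adjusted p = 0.074). Dixon's test for an outlying sample needs at least 4 samples in a group and was not run, and each Tom- library was left out in turn instead.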

How the results depend on the processing

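Genes called higher ranged from 723 to 1111, and genes called lower from 179 to 316, when 1 library was left out at a time. The lowest count of falls, 179, came without Tom- CCl4 3. With the 6 Tom- libraries fitted alone, counts were 1000 higher and 226 lower. With the 6 Tom- libraries alone and Tom- oil 1 left out (a choice made after seeing the data), counts were 638 higher and 170 lower. Dropping the fold threshold gave 1605 higher and 1156 lower. Numbers were not treated as pairs of oil and CCl4 libraries, and a replicate block over the 12 libraries moved the counts to 1366 higher and 328 lower. DESeq2 gave 1336 and 326. No named gene changed sign while called, in any alternative run.

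The test of the difference between fractions depended most on the processing. Against 164 higher and 37 lower, DESeq2 gave 472 and 111 and the replicate block over all libraries gave 399 and 106. The replicate block within each treatment, which pairs the fractions and was added later, gave 718 and 220. With library size alone the lower count was 142. Leaving out 1 Tom- library gave 31 to 162 higher and 13 to 61 lower, with 75 higher without Tom- oil 1, 52 without Tom- oil 2 and 31 without Tom- CCl4 2. The causes were not tested. Leaving out a library ended the call of 16 to 35 of the 249 named genes. The genes given above as not called without Tom- oil 1 that also lost their call without at least 1 other Tom- library were Cyp3a11, Gstm3, G6pdx, Ephx1, Bhmt, Got1, Mcm3, Krt23, Notum, Anxa3, S100a11, Socs3, Oas1a, Psmb9, Mx2, Cxcl14, Psat1, Trib3, Myc, Hamp2 and Ccn1, and Cbr3 lost its call without Tom- CCl4 3. Other scalings moved the median of all genes by at most 0.053 on the log2 scale. Depth limits the genes under 1 CPM, where 3 counts are 0.0581 to 0.0829 CPM.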
